A study of Mus musculus with 26 samples.

Results

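The genes described are 8 markers of B and T lymphocytes, chosen by symbol: Ms4a1, Cd79a, Cd79b, Cd3e, Cd3g, Cd4, Cd8a and Il2rb. Every probe set that the array annotation gives to 1 of these symbols alone was used, which came to 15 probe sets for 8 genes of the 45037 probe sets and 18193 genes on the array. Ms4a1, Cd4 and Il2rb have 2 probe sets each, Cd8a has 5, and the others have 1. RNA of the inguinal mammary gland was measured on 26 Affymetrix arrays. The parental strains were CBA/CaH and QSi5. Each gave 5 arrays from day 12 of pregnancy and 3 from day 9 of lactation. The remaining 10 arrays came from generation 14 of an Advanced Intercross Line (AIL) of these strains, also at day 9 of lactation, and 5 carry the code AC and 5 the code AQ, whose meaning the labels leave out. No treatment or engineered allele is named for any group. The labels do not state that each array is a separate animal, so p-values measure the spread between these arrays.

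B lymphocytes carry CD20, encoded by Ms4a1, and an antigen receptor that signals through the paired chains CD79A and CD79B. T lymphocytes carry the CD3 chains in their receptor, among them those encoded by Cd3e and Cd3g, and the coreceptors CD4 or CD8, of which Cd8a encodes a chain. Il2rb encodes the beta chain of the receptors for interleukin-2 and interleukin-15, found on natural killer cells and T cells. The lactating gland holds T cells in and near its epithelium and draws antibody-secreting cells, and the inguinal fat pad encloses a lymph node rich in B and T cells. Whether that node was removed is not given in the sources used here.

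RefSeq promoter sequences on the build GRCm38.p6 were matched for 4 of the 8 genes by symbol. The 250 bases before the start of 3 of them are shown because 1 array, described further on, lay far above the others of its group for Cd79a and Cd3g and not for the brightest Cd8a probe set: Cd79a, a B cell gene, lies at chr7:24897247-24897496 on the plus strand, Cd3g at chr9:44980432-44980681 on the minus strand, and Cd8a at chr6:71373177-71373426 on the plus strand. Cd3g lies near Cd3e on its chromosome. Capitals mark matches, on either strand, to an Ets-type core, GGAAGT, and to an E-box, CAGGTG.
Cd79a: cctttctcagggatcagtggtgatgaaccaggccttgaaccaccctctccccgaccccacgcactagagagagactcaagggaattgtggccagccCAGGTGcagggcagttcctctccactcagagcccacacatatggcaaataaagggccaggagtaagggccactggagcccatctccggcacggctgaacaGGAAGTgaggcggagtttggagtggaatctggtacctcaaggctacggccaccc
Cd3g: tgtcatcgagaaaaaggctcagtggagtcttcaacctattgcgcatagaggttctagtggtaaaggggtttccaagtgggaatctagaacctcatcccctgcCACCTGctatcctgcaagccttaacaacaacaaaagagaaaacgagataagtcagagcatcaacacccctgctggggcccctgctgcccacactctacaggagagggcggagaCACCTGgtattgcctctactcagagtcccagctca
Cd8a: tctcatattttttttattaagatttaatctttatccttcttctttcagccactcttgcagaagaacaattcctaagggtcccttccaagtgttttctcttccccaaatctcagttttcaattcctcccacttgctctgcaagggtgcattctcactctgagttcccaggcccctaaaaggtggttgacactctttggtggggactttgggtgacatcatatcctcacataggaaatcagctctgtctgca
Cd79a holds 1 match to each motif, Cd3g holds 2 to CAGGTG, and Cd8a holds neither. The octamer ATGCAAAT and the CRE-like letters TGACGT were also searched on both strands, with no match in these 3 windows. Cd3e, also matched but not shown, holds 1 match to GGAAGT, 1 to TGACGT and 0 to CAGGTG and to ATGCAAAT. Because the 3 windows were chosen by expression values, their matches do not compare raised genes with others. Among all 32851 RefSeq promoter windows of this length, the Ets-type core was found in 19.7%, the E-box in 17.2%, the octamer in 1.60% and the CRE-like letters in 6.47%. A match is a description of the letters and not a binding site, and its absence says only that the letters are not in the window.

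Expression is given as the log2 value of a probe set, on a scale from 2.34 to 15.1 over the whole table, so that 1 unit is a doubling. The array medians lay between 5.00 and 5.30, and were higher at lactation, which moved the median of all probe sets by 0.17 in CBA/CaH and 0.19 in QSi5. All 8 listed markers of mammary epithelium were measured, with group means of Csn2, the beta-casein gene, between 14.7 and 14.9. At lactation 2 of these 8 were higher and 4 lower in each strain, with median differences of -0.91 in CBA/CaH and -1.05 in QSi5. In all, 6 arrays stood apart in muscle or brown fat markers or in the 3' minus 5' value of Gapdh. They were arrays 3 and 5 of pregnant CBA/CaH mice, arrays 3, 4 and 5 of pregnant QSi5 mice, and AIL array AC 1. No lactation array of the parental strains was among them, so these measures were not balanced between the stages. No detection call was used, so a low value does not say that a gene was unexpressed, and levels of different probe sets were not compared.

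The B cell genes were highest on 1 array. On array 2 of lactating QSi5 mice, 12 of the 15 lymphocyte probe sets had their highest value of all 26 arrays, against 8.49% of all probe sets. There, 4 lymphocyte probe sets lay at least 1 unit above every other array, against 92 probe sets (0.204%) of the whole array. These 4 were the 2 of Ms4a1 and those of Cd79a and Cd79b, which are all the B cell probe sets. The array lies in a group of 3, and many values of that group are also given without it. A second array, number 4 of pregnant CBA/CaH mice, held the next-highest value of Ms4a1 (brightest probe set) and Cd3g. It ranked 25 of 26 for the brightest Cd8a probe set, so its lymphocyte genes were not high as a whole. Below, the 2 high arrays are these, named for their values of Ms4a1 and Cd3g.

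**Figure D1:**
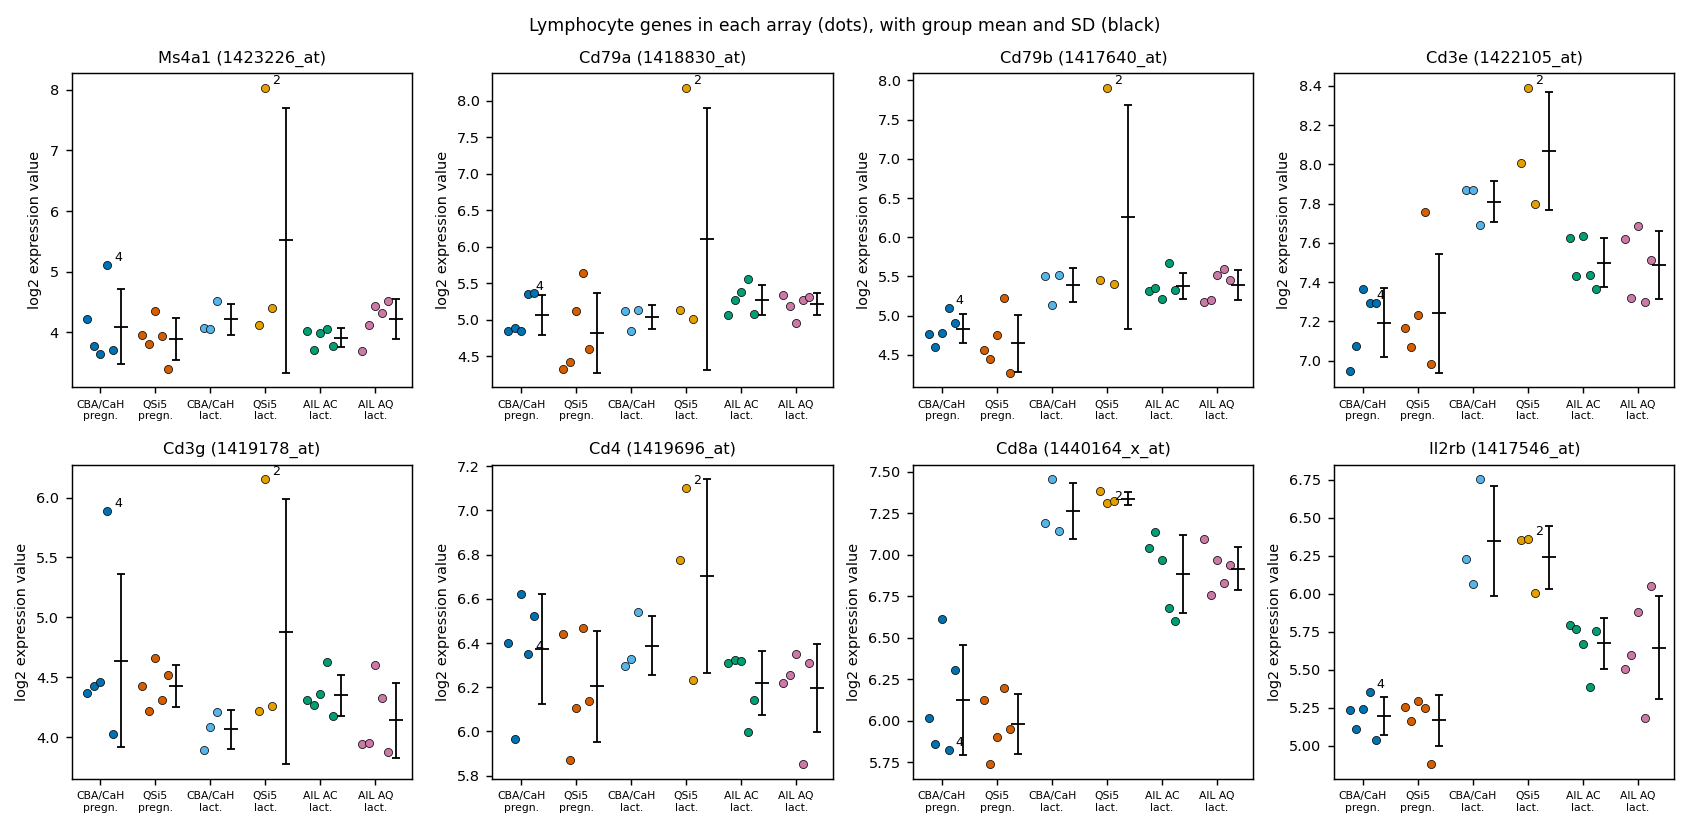
The log2 expression value of each gene's brightest probe set (vertical axis) is plotted for each array (dots) in 6 groups, with the group mean and SD in black and numbers on QSi5 lactation array 2 and CBA/CaH pregnancy array 4. Array 2 stands alone at 8.04 for Ms4a1, 8.18 for Cd79a and 7.91 for Cd79b, while all lactation arrays of both strains lie above the pregnancy arrays for Cd8a and Il2rb.

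Ms4a1 (probe set 1423226_at), the CD20 gene, was at 8.04 on array 2 of lactating QSi5 mice and at 4.11 and 4.40 on the other 2 arrays of the group. Lactating CBA/CaH mice had 4.06, 4.08 and 4.51. Pregnant CBA/CaH mice had 3.64, 3.71, 3.78, 4.23 and 5.11, and pregnant QSi5 mice had 3.39, 3.81, 3.94, 3.96 and 4.35. Without array 2, the lactation values therefore overlapped the pregnancy values in both strains. Its second probe set, 1450912_at, showed the same array at 6.49, with all other 25 arrays at 3.21 or below. The 2 probe sets correlated at r = 0.92 over 26 arrays and at r = 0.15 over the 24 arrays left without the 2 high ones.

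Cd79a, which encodes the alpha signalling chain of the B cell receptor, was at 8.18 on the same array, against 5.14 and 5.01 on the other arrays of its group. Lactating CBA/CaH mice had 4.84, 5.13 and 5.13. Pregnant CBA/CaH mice ranged from 4.84 to 5.37 (median 4.89, n = 5) and pregnant QSi5 mice from 4.33 to 5.64 (median 4.59, n = 5). The stages overlapped in CBA/CaH, and in QSi5 they overlapped but for array 2.

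Cd79b, the partner chain, followed another pattern. It was at 7.91 on array 2, and at 5.46 and 5.41 on the other lactating QSi5 arrays, which lay above every pregnant QSi5 array (4.27, 4.45, 4.56, 4.75 and 5.22). Lactating CBA/CaH mice had 5.14, 5.50 and 5.52, against 4.61, 4.77, 4.78, 4.91 and 5.10 in pregnancy. As deposited, lactation and pregnancy did not overlap in either strain, with or without array 2. In CBA/CaH this was narrow, at 5.14 against 5.10, and the medians of those 2 arrays were 5.27 and 5.05. The share of all probe sets without overlap was not counted, here or for the genes below.

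The T cell genes were less far apart on array 2. Cd3g, the gamma chain of CD3, was at 6.16 there, with 4.22 and 4.26 on the other arrays of the group. It was at 5.89 on array 4 of pregnant CBA/CaH mice, whose other arrays had 4.03, 4.37, 4.43 and 4.46. The 2 highest Cd3g values of the series thus came from opposite stages and strains. Cd3e, the epsilon chain, exceeded the mean of the other 2 arrays of its group by 0.49 on array 2, and Cd4 (1419696_at) by 0.60. The brightest probe set of Cd8a was 0.04 lower there (a difference of -0.04), and that of Il2rb 0.18 higher. The other Cd8a probe sets differed by 0.07 to 0.92.

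**Figure D2:**
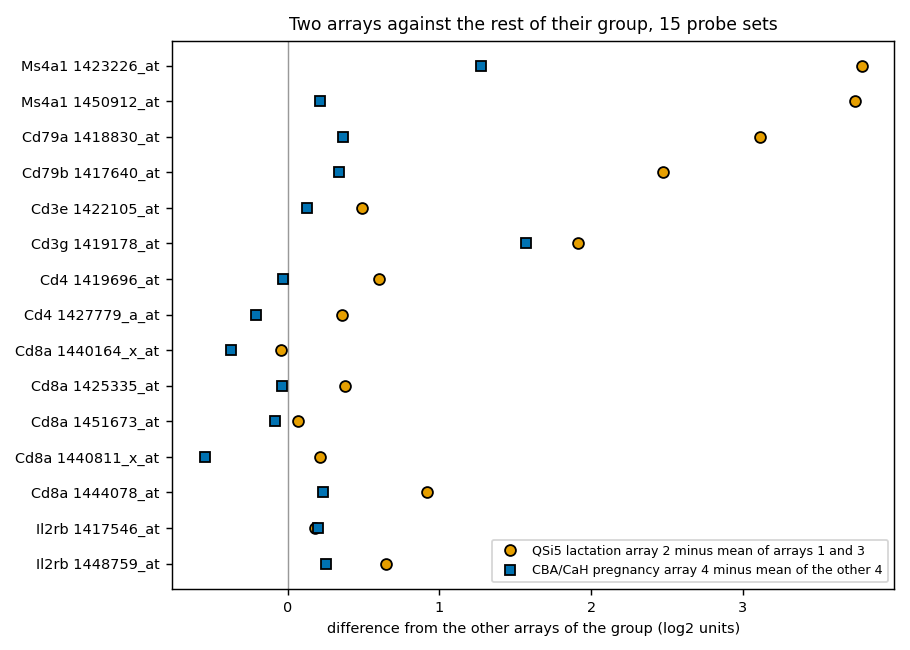
For each of the 15 probe sets (rows), the value on QSi5 lactation array 2 (circles) and on CBA/CaH pregnancy array 4 (squares) is given minus the mean of the other arrays of its group, in log2 units. Circles of the B cell genes lie between 2.48 and 3.78, those of Cd8a and Il2rb between -0.04 and 0.92, and the squares exceed 1 for Ms4a1 1423226_at (1.28) and Cd3g (1.57).

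Other lymphocyte and pan-leukocyte genes were also high on array 2 of lactating QSi5 mice. Of 14 measured B cell genes outside the 8, 9 were highest on array 2, and 6 of them by at least 1 unit, among them Fcer2a, the low-affinity IgE receptor (7.72, at most 5.14 elsewhere), and Cd22, a B cell inhibitory receptor (9.02, at most 7.87). Of 21 other T cell genes, 13 were highest there, 3 of them by at least 1 unit. Of 8 pan-leukocyte genes 6 were highest there, 5 by at least 1 unit. The list median of these 8, as the deviation from the mean of all arrays, was 2.23 on array 2, -0.45 and -0.46 on the other arrays of its group, and 1.10 on array 4 of pregnant CBA/CaH mice. Of 7 measured lymph node genes, Cxcl13, the chemokine of B cell follicles, Cr2, a complement receptor of B cells and follicular dendritic cells, and Ltb, lymphotoxin beta, were highest there. Cxcl13 was at 7.64 (at most 6.81 elsewhere), Cr2 at 7.18 (at most 5.77) and Ltb at 9.04 (at most 7.19). The list median of the 7 lymph node genes did not stand out, at 0.12 on array 2. It was 0.11 and 0.12 on the other arrays of its group, and 0.32 on array 1 of lactating CBA/CaH mice. None of 12 macrophage and dendritic cell genes was highest there, and of 9 plasma cell genes 1 was. The Gapdh 3' minus 5' value of the array was 1.48, in a group range of 1.48 to 1.62. On array 4 of pregnant CBA/CaH mice, the list medians of the other B and T cell genes were -0.25 and -0.10. The ranges of its group were -0.41 to -0.23 and -0.33 to -0.10. The part of lymph node tissue in these values was not tested.

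**Figure D3:**
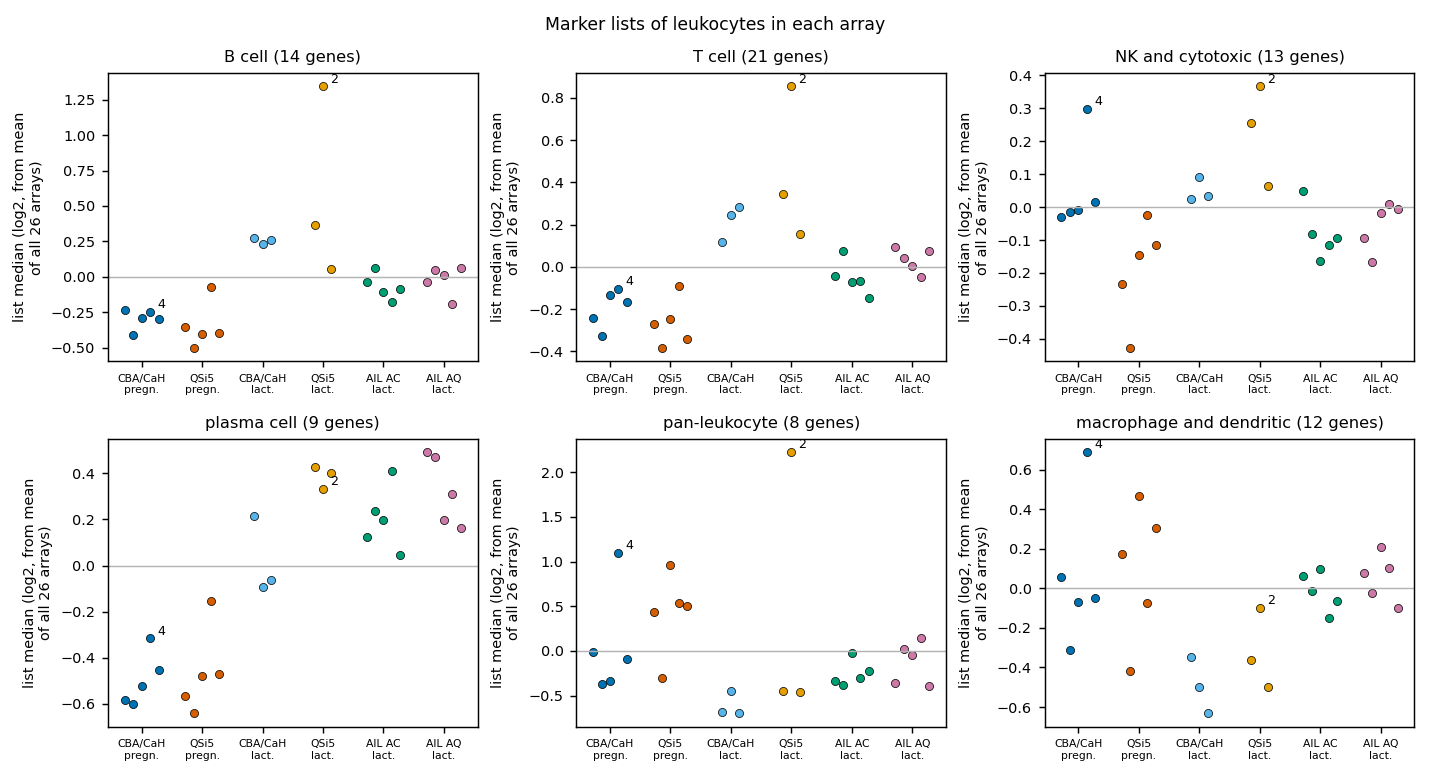
Each dot is 1 array, and the vertical axis is the median over a marker list of the log2 deviation from the mean of all 26 arrays, for 6 lists and 6 groups. Numbered array 2 of lactating QSi5 mice is at 1.34 for B cells, 0.85 for T cells and 2.23 for pan-leukocyte genes, and at 0.33 for plasma cells, below the other arrays of its group.

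The genes whose values were most like those of Ms4a1 and Cd3g over the 26 arrays were found by Pearson correlation. For Ms4a1 they were Ighv14-2, an immunoglobulin heavy chain variable segment (r = 0.91), Fcmr, the Fc receptor for IgM (r = 0.91), Btla, a lymphocyte inhibitory receptor (r = 0.89), Trav9d-3, a T cell receptor variable segment (r = 0.89), and Ccl5, a chemokine of T and natural killer cells (r = 0.88). Without the 2 high arrays these fell to between 0.16 and 0.34. For Cd3g they were Ms4a4b, a membrane protein of T cells (r = 0.88), Coro1a, an actin-binding protein of leukocytes (r = 0.84), Ltb (r = 0.83), Cd52, a lymphocyte surface glycoprotein (r = 0.83) and Arhgap15 (r = 0.83), and between 0.40 and 0.53 without those arrays. Arrays of 1 group share stage and strain, so these are descriptions. Among the 8 genes, deviations from the group means of Ms4a1 correlated with those of Cd79b at r = 0.90 over 26 arrays and 0.49 over 24. For Cd79a and Cd79b, r was 0.94 and 0.71. For Cd8a and Il2rb it was 0.03 and 0.10.

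The first comparison asked how the gland changed between pregnancy and lactation in each strain. Il2rb, Cd8a, Cd3e and a probe set of Cd4 rose in both strains, and Cd79b, Ms4a1 and Cd79a were called higher in QSi5. In CBA/CaH 5 of the 15 probe sets, of 4 genes, were higher at lactation and none lower, where 32.3% of all probe sets were higher. Among the 36530 probe sets with a mean level within the range of the 15, that share was 37.3%. The CBA/CaH count is thus near the background. In QSi5 12 of the 15, of 7 genes, were higher and none lower, against 35.9% of all probe sets and 41.5% within the level range. A call was an adjusted p under 0.05 (limma, Benjamini-Hochberg over all 45037 probe sets). The median difference of the 15 was 0.17 in CBA/CaH, the same as that of all probe sets, and 0.92 in QSi5, against 0.19.

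Without array 2 of lactating QSi5 mice, 8 of the 12 QSi5 calls remained, of 5 genes, beside 30.8% of all probe sets, and the median difference of the 15 was 0.48. The calls lost were Ms4a1, Cd79a, Cd4 1419696_at and Cd8a 1444078_at. The same 4 were lost, with array 2 kept, without the 6 arrays that stood apart, where Ms4a1 was at 1.63 (adjusted p = 0.126) and Cd79a at 1.74 (adjusted p = 0.0500025). The CBA/CaH calls became 6 without it, since the fit shares 1 estimate of the spread. With all array medians set equal, 4 probe sets were higher in CBA/CaH, beside 20.2% of all probe sets higher and 24.7% lower (32.3% and 20.7% as deposited). In QSi5 it was 8, beside 21.6% higher and 28.4% lower (35.9% and 23.1% as deposited).

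Il2rb (1417546_at), the receptor chain for interleukin-2 and interleukin-15, gave 6.06, 6.23 and 6.76 in lactating CBA/CaH mice and 5.04, 5.11, 5.23, 5.24 and 5.36 in pregnant ones. In QSi5 it was at 6.0, 6.35 and 6.36, against 4.88, 5.16, 5.24, 5.25 and 5.29. No lactation array overlapped a pregnancy array. The difference was 1.15 in CBA/CaH (SE 0.16, adjusted p = 3.35e-05, limma) and 1.07 in QSi5 (SE 0.16, adjusted p = 4.57e-05), folds of 2.23 and 2.10. Without array 2 it was 1.01 in QSi5 (adjusted p = 0.000503). Its second probe set, 1448759_at, did not follow, with differences of -0.04 and 0.14 (adjusted p = 0.848 and 0.516), and the 2 sets correlated at r = 0.00 over 26 arrays. The rise of Il2rb therefore rests on 1 of its 2 probe sets.

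Cd8a (1440164_x_at), the CD8 alpha chain of cytotoxic T cells, was at 7.15, 7.19 and 7.46 in lactating CBA/CaH mice, and at 5.82, 5.86, 6.02, 6.31 and 6.61 in pregnancy. Lactating QSi5 mice had 7.31, 7.32 and 7.38, against 5.74, 5.90, 5.95, 6.12 and 6.20. The groups were separate in both strains. The difference was 1.14 in CBA/CaH (SE 0.17, adjusted p = 7.09e-05, limma) and 1.36 in QSi5 (SE 0.17, adjusted p = 1.06e-05), and without array 2 it was 1.37 in QSi5 (adjusted p = 0.0001). The suffix x_at marks probes that can match other transcripts, which limits this value. Of the other 4 Cd8a probe sets, 1 was called in CBA/CaH (1451673_at, 0.60, adjusted p = 0.0118) and all 4 in QSi5, at 0.61 to 0.96. The CBA/CaH call was lost with quantile normalization, with array medians set equal, with replicate numbers as a block, and without lactating CBA/CaH array 1 (adjusted p = 0.0562). Of the 4 QSi5 calls, that of 1444078_at was lost without array 2 (0.31, adjusted p = 0.127), and that of 1425335_at was lost with quantile normalization. All 5 sets of the gene differed in the same direction in both strains as deposited, but with array medians set equal 2 of them were slightly lower in CBA/CaH (0.00 and -0.03, not called).

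Cd3e, the epsilon chain of CD3, was at 7.69, 7.87 and 7.87 in lactating CBA/CaH mice and at 6.94, 7.07, 7.29, 7.29 and 7.36 in pregnant ones. In QSi5 it was at 7.80, 8.01 and 8.39, against 6.98, 7.07, 7.17, 7.23 and 7.76. Lactation lay above pregnancy without overlap, narrowly so in QSi5. The difference was 0.62 (SE 0.18, adjusted p = 0.00846, limma) in CBA/CaH and 0.82 (SE 0.18, adjusted p = 0.00099) in QSi5, where it was 0.66 (adjusted p = 0.00967) without array 2.

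Cd4, the coreceptor of helper T cells, gave different answers by probe set. The set 1427779_a_at was at 4.89, 4.90 and 4.90 in lactating CBA/CaH mice against 4.02 to 4.43 in pregnancy, and at 4.51, 5.04 and 5.13 in lactating QSi5 mice against 3.78 to 4.33. Lactation exceeded pregnancy by 0.71 in CBA/CaH (SE 0.15, adjusted p = 0.00149, limma) and by 0.80 in QSi5 (SE 0.15, adjusted p = 0.000483), or 0.68 without array 2 (adjusted p = 0.00481). The brighter set 1419696_at was at 6.30, 6.33 and 6.54 in lactating CBA/CaH mice, within the pregnancy range of 5.97 to 6.62, and differed by 0.02 (adjusted p = 0.949). In QSi5 it was at 6.23, 6.77 and 7.10 against 5.87 to 6.47, a difference of 0.50 (SE 0.20, adjusted p = 0.0392) that was 0.30 (adjusted p = 0.238) without array 2. It also missed the threshold without array 1 of that group and without pregnant QSi5 array 2, 3 or 5. Both sets correlated at r = 0.41.

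Cd3g was not called in either strain. Its difference was -0.57 in CBA/CaH (SE 0.41, adjusted p = 0.248, limma) and 0.45 in QSi5 (SE 0.41, adjusted p = 0.353). Without array 4 of pregnant CBA/CaH mice the first was -0.26 (adjusted p = 0.548), and without array 2 of lactating QSi5 mice the second was -0.19 (adjusted p = 0.674). Lactating CBA/CaH mice had 3.89, 4.09 and 4.21, and pregnant QSi5 mice had 4.22, 4.31, 4.43, 4.52 and 4.66. Lactation and pregnancy overlapped in both strains.

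Cd79b rose by 1.61 in QSi5 (SE 0.42, adjusted p = 0.00392, limma), and by 0.78 (SE 0.22, adjusted p = 0.00788) without array 2. In CBA/CaH its difference was 0.56 (SE 0.42, adjusted p = 0.269), although the groups, as deposited, narrowly did not overlap. Array 2 of lactating QSi5 mice enters that test through the shared spread, and without it the same 0.56 had SE 0.19 and adjusted p = 0.023. Ms4a1 was called in QSi5 at 1.63 (SE 0.64, adjusted p = 0.0385) and Cd79a at 1.29 (SE 0.53, adjusted p = 0.0474). Without array 2 the values were 0.37 (adjusted p = 0.377) and 0.25 (adjusted p = 0.488). Of the 16 fits that left out 1 array each, the Cd79a call held in 3, that of Ms4a1 in 12, and those of Cd79b, Cd3e, Il2rb 1417546_at and Cd8a 1440164_x_at in all 16. Besides array 2, the Ms4a1 call was lost without pregnant QSi5 array 1, 2 or 5. The Cd79a call held only without lactating QSi5 array 1 or 3 or pregnant QSi5 array 4. In CBA/CaH, Ms4a1 and Cd79a differed by 0.12 and -0.03 (adjusted p = 0.882 and 0.970).

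**Figure D4:**
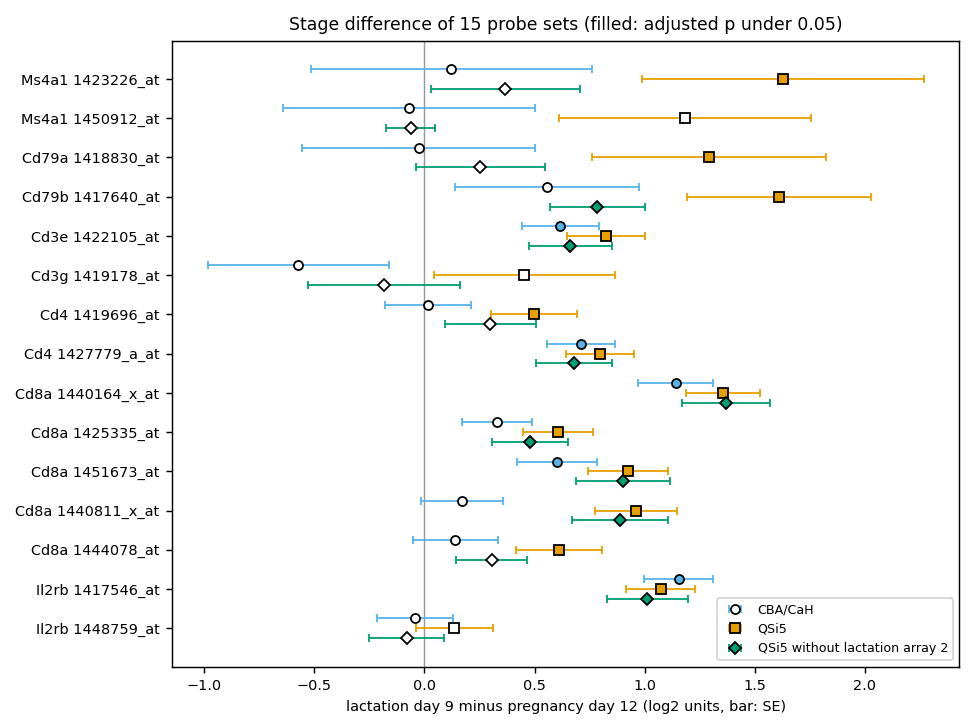
For each of the 15 probe sets (rows), the mean at lactation day 9 minus that at pregnancy day 12 is plotted in log2 units with its SE, for CBA/CaH (circles), QSi5 (squares) and QSi5 without lactation array 2 (diamonds). Filled symbols had an adjusted p under 0.05. Leaving out that array moves Ms4a1 1423226_at from 1.63 to 0.37 and Cd79a from 1.29 to 0.25, while Cd8a 1440164_x_at stays at 1.36 and 1.37.

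In bulk tissue, more cells of a type and more RNA per cell cannot be told apart, nor can a smaller share of other RNA. Of the 8 pan-leukocyte genes, none was higher and 2 lower in CBA/CaH, where 32.3% of all probe sets were higher and 20.7% lower. There Ptprc, the CD45 gene, fell by 2.04 (adjusted p = 0.0084, limma) and Arhgdib fell by 1.11 (adjusted p = 0.038). In QSi5 1 was higher (Rac2, 1.03, and 0.47 without array 2) and none lower, where 35.9% of all probe sets were higher and 23.1% lower. Without array 2 none was higher, and 3 were lower in CBA/CaH and 4 in QSi5, beside 20.3% and 20.2% of all probe sets. The counts of the lists below are to be read beside the same shares. The pan-leukocyte list medians ran from -0.37 to 1.10 in pregnant CBA/CaH mice and from -0.70 to -0.45 in lactating ones. In QSi5 they ran from -0.30 to 0.96, and from -0.46 to 2.23. Of the 12 macrophage and dendritic cell genes, 3 were higher and 4 lower in each strain, among the latter Mrc1, the macrophage mannose receptor (-2.10 and -1.86). Of the 4 measured white adipocyte genes, 3 were lower in CBA/CaH and 2 in QSi5 (none without array 2), with median differences of -1.95 and -1.49. Their list medians ran from -1.85 to 2.59 in pregnant CBA/CaH mice and from -1.73 to -0.93 in lactating ones, and in QSi5 from -0.20 to 1.19 and from -1.48 to -0.81. The part of leukocytes, epithelium and adipocytes in the member differences was not tested.

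Other genes of the same cells were taken from lists. Of all probe sets, 32.3% were higher in CBA/CaH and 35.9% in QSi5, and 20.7% and 23.1% were lower. Without array 2 of lactating QSi5 mice, 32.1% and 30.8% were higher. Of 14 further B cell genes, 7 rose at lactation in CBA/CaH and 1 fell. In QSi5 it was 11 and 1. Without array 2 it was 9 and 1 in each strain, since that array enters the CBA/CaH tests through the shared spread. Cd22 rose by 1.18 and 1.69 (SE 0.24 for both). Fcer2a rose by 1.71 in QSi5 (adjusted p = 0.0072), and by 0.71 without array 2 (adjusted p = 0.0105). Pou2af1, a B cell coactivator, rose by 1.79 there (adjusted p = 0.0018), and by 1.14 without array 2 (adjusted p = 0.0129). Blnk, a B cell adaptor, fell in both strains (-1.63 and -1.40), and Spib, a transcription factor, was called in neither (0.10 and 0.80, the latter 0.26 without array 2). Cd79b was thus among several B cell genes that were higher at lactation. Among 21 further T cell genes, 10 rose in CBA/CaH and 1 fell. In QSi5 it was 16 and 1, and without array 2 it was 13 and 1 in each strain. Bcl11b, a T cell transcription factor, rose by 1.11 and 1.27. Cd2, an adhesion receptor, rose by 1.23 in QSi5, or by 0.71 without array 2 (adjusted p = 0.0114). Cd5, a receptor modulator, rose by 0.60 and 0.99, the latter 0.59 without array 2 (adjusted p = 0.0165). Thy1, also found on stromal cells, fell in both strains (-1.86 and -2.15). Cd3d, the delta chain of CD3, differed by -0.13 and 0.99 (0.26 without array 2) and was not called. With array medians set equal, 20.2% of all probe sets were higher in CBA/CaH and 21.6% in QSi5. Of the 21 T cell genes, 4 were then called higher in CBA/CaH and 12 in QSi5, with 1 lower in each. For the 14 B cell genes it was 6 and 10, again with 1 lower in each. The T cell count in CBA/CaH was thus near the share of all probe sets.

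Genes near Il2rb in its pathway were mixed, and their counts are to be read beside the 32.3% (CBA/CaH) and 35.9% (QSi5, or 30.8% without array 2) of all probe sets that were higher. Of 8 measured genes of the interleukin-2 and interleukin-15 axis, 2 rose in CBA/CaH and 3 in QSi5, while Stat5b alone fell. Il2ra, the alpha chain, rose by 0.49 and 0.65, and Il2, its ligand, by 0.87 and 0.75. Il15, the other ligand, rose by 2.01 in QSi5 (adjusted p = 0.0038), and its CBA/CaH difference was 0.60 (adjusted p = 0.33). Stat5b, a downstream transcription factor that the mammary epithelium also uses, was at -1.76 and -1.68. Of 13 natural killer and cytotoxic genes, 3 were higher in CBA/CaH and 7 in QSi5 (4 and 5 without array 2), and none was lower. Klrk1, the receptor NKG2D, rose by 0.93 and 1.15, and Fasl, the Fas ligand, by 0.55 and 1.23. Gzma and Gzmb, the granzymes, differed by -0.66 and -0.68 in CBA/CaH and by -0.07 and -0.21 in QSi5 and were not called. Of 10 receptor kinases and adaptors, 3 rose and 2 fell in CBA/CaH, against 4 and 1 in QSi5, with Btk, a kinase of B cells, higher by 0.69 and 1.08. Of 9 plasma cell genes, 6 were higher and 1 lower in each strain. Jchain, the joining chain of secreted antibody, rose by 3.60 in QSi5 (adjusted p = 0.0016), and its CBA/CaH difference was 1.07 (adjusted p = 0.28). Of 8 homing genes, the CBA/CaH mice showed 4 higher and 1 lower, and the QSi5 mice 6 and 1. Ccl28, the chemokine that draws antibody-secreting cells, rose by 5.07 and 5.55. The kinase list shares Blnk, Btk, Zap70 and Lat with the B and T cell lists. With array medians set equal, the CBA/CaH counts turned to 2 higher and 3 lower for the natural killer and the kinase lists, and to 1 and 2 for the interleukin axis. The plasma cell count of higher genes in CBA/CaH was then 2, and the homing counts were 2 in CBA/CaH and 3 in QSi5.

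The strains were compared at each stage. At pregnancy none of the 15 probe sets was called (limma), none had an unadjusted p under 0.05, and 1.09% of all probe sets were called in either direction. The widest differences of the brightest sets were those of Cd79a (-0.24, QSi5 minus CBA/CaH, SE 0.46) and Cd3g (-0.21, SE 0.36). At lactation none was called, 1 had an unadjusted p under 0.05 (Cd8a 1440811_x_at, 0.47, adjusted p = 0.920), and 0.289% of all were called. Ms4a1 was 1.30 higher in lactating QSi5 mice (SE 0.71, adjusted p = 1.000), and without array 2 it was 0.04 higher. Cd79a and Cd79b were 1.08 and 0.87 higher, and 0.04 each without that array. These B cell differences between strains therefore came with 1 array and did not exceed the spread.

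Whether the stage difference itself differed between strains was tested as an interaction. None of the 15 probe sets was called (limma), 1 had an unadjusted p under 0.05, and 0.104% of all probe sets were called. In simulated data only 20% of changes of 1 unit were called in this comparison, so it could miss differences of that size. For Ms4a1 the stage difference was 1.51 larger in QSi5 (SE 0.90, adjusted p = 0.992), and 0.25 larger without array 2 (SE 0.45). For Cd8a 1440811_x_at it was 0.79 larger (SE 0.26, adjusted p = 0.691) and 0.72 without array 2. A call in QSi5 and not in CBA/CaH is thus not shown to be a difference between the strains.

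The AIL was compared with each parental strain at lactation. Both comparisons use the same 10 AIL arrays. Against CBA/CaH, 4 of the 15 probe sets, of 3 genes, were lower in the AIL and none higher, where 17.4% of all probe sets were lower. Against QSi5, 9 of the 15, of 6 genes, were lower, where 20.3% of all were lower. The median differences of the 15 were -0.18 and -0.57, against -0.07 and -0.08 for all probe sets. Without array 2 of lactating QSi5 mice, 4 of the 9 calls remained, of Cd3e and Cd8a, beside 13.1% of all probe sets, and the median was -0.19. Without array 3 of that group 14 were called. Against CBA/CaH, 6 were called without array 2 or 3 of lactating QSi5 mice, and 2 without array 1 or without array 2 of lactating CBA/CaH mice.

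Cd8a (1440164_x_at) ranged from 6.60 to 7.14 in the AIL (median 6.95, n = 10), below all parental lactation arrays, which began at 7.15. It was lower by 0.36 against CBA/CaH (-0.36, SE 0.12, adjusted p = 0.0248, limma) and by 0.44 against QSi5 (-0.44, SE 0.12, adjusted p = 0.00803), and in the latter by 0.45 without array 2 (-0.45, adjusted p = 0.0274). Without array 2 of lactating CBA/CaH mice the first was -0.27 (adjusted p = 0.156). Il2rb (1417546_at) ranged from 5.18 to 6.05 (median 5.71, n = 10). All but 1 of these arrays lay above every pregnancy array, and all but 1 below every parental lactation array. Its differences were -0.69 (SE 0.17, adjusted p = 0.00413) and -0.58 (SE 0.17, adjusted p = 0.0114). The second was -0.52 without array 2 of lactating QSi5 mice (adjusted p = 0.0642) and -0.52 without array 1 (adjusted p = 0.0628), and the first was -0.49 without array 3 of lactating CBA/CaH mice (adjusted p = 0.0598). Cd3e ranged from 7.30 to 7.69 (median 7.47, n = 10), and differed by -0.32 (SE 0.12, adjusted p = 0.0542) and -0.57 (SE 0.12, adjusted p = 0.00154), the second -0.41 without array 2 of lactating QSi5 mice (adjusted p = 0.0248). Its highest AIL array lay just below the lowest lactating CBA/CaH array. The first difference passed the threshold without lactating QSi5 array 2 or 3 or AIL array AQ 3 (adjusted p = 0.0307, 0.0399 and 0.0423). For the brightest sets of Cd8a, Il2rb and Cd3e the AIL mean thus lay between the pregnancy and lactation means of both parents. The second Il2rb set, 1448759_at, did not follow. Its AIL mean of 4.71 lay below the pregnancy means (5.13 in CBA/CaH, 4.90 in QSi5) and the lactation means (5.09 and 5.03). Its differences were -0.38 (adjusted p = 0.0512, limma) and -0.33 (adjusted p = 0.0819). Cd8a 1440811_x_at had an AIL mean of 3.98, below that of pregnant CBA/CaH mice (4.02).

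Cd4 (1427779_a_at) ranged from 4.41 to 4.74 in the AIL (median 4.57, n = 10). It was lower against CBA/CaH (-0.33, SE 0.12, adjusted p = 0.0402, limma) and against QSi5 (-0.32, SE 0.12, adjusted p = 0.0379), calls that held in 8 and 9 of the 16 fits that left out 1 array. They were lost without any 1 of the 3 lactating CBA/CaH arrays for the first, without array 1 or 2 of lactating QSi5 mice for the second, and without AIL array AC 1, AC 5, AQ 1, AQ 2 or AQ 4 for both. Without array 2 of lactating QSi5 mice the second was -0.21 (adjusted p = 0.263). The brighter set 1419696_at ranged from 5.85 to 6.35 (median 6.28, n = 10) and differed by -0.18 (adjusted p = 0.368) and -0.50 (SE 0.15, adjusted p = 0.014), the second lost without array 1 of lactating QSi5 mice, and without array 2 at -0.30 (adjusted p = 0.165). Cd3g ranged from 3.87 to 4.63 (median 4.29, n = 10) and was called in neither comparison, at 0.18 (adjusted p = 0.655) and -0.64 (adjusted p = 0.0829). Without array 2 of lactating QSi5 mice the second was 0.00 (adjusted p = 0.990). Both genes thus overlapped the parental lactation arrays in the AIL, apart from Cd4 1427779_a_at in CBA/CaH.

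Among the B cell genes of the AIL, Ms4a1 ranged from 3.69 to 4.52 (median 4.04, n = 10), Cd79a from 4.96 to 5.56 (median 5.27) and Cd79b from 5.18 to 5.67 (median 5.34). None of the 3 was called against CBA/CaH, at -0.15, 0.21 and 0.00. Against QSi5, Ms4a1 was at -1.45 (SE 0.50, adjusted p = 0.0306) and Cd79b at -0.87 (SE 0.33, adjusted p = 0.0489), and without array 2 at -0.19 (adjusted p = 0.464) and -0.05 (adjusted p = 0.834). The Cd79b call held in 3 of the 16 fits that left out 1 array. The AIL arrays did not reach the level of array 2 in any B cell probe set.

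The AIL arrays differed from the parental lactation arrays in other measures. Their Gapdh 3' minus 5' value was 0.54 to 0.80, against 1.12 to 2.02, and their array medians were 5.13 to 5.22, against 5.25 to 5.30. With array medians set equal, 2 member probe sets were called lower against CBA/CaH (Il2rb 1417546_at and Cd8a 1451673_at) and 7 against QSi5. Of all probe sets, 10.3% were then lower and 18.0% higher against CBA/CaH (17.4% and 14.7% as deposited), and 11% and 20.1% against QSi5 (20.3% and 15.7%). Line and these measures cannot be told apart. Of the 4 white adipocyte genes, 3 were higher and none lower in the AIL than in each parent, with median differences of 1.44 against CBA/CaH and 1.23 against QSi5, and the part of adipocytes was not tested. The pan-leukocyte list medians of the AIL were -0.39 to 0.15, and 6 of the 12 macrophage and dendritic cell genes were higher and 2 lower than in CBA/CaH. Of the 14 further B cell genes, 2 were lower than in CBA/CaH and 8 lower than in QSi5. Without array 2 of lactating QSi5 mice it was 5 and 5. For the 21 further T cell genes it was 3 and 12, and 4 and 2 without that array. Of all probe sets, 17.4% were lower than in CBA/CaH and 20.3% lower than in QSi5, or 17.9% and 13.1% without it. With all arrays, both CBA/CaH counts thus did not exceed the share of all probe sets. Without array 2, the B cell count against CBA/CaH exceeded that share and the T cell count was near it. The T cell count against QSi5 did not exceed the share without array 2.

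The AQ and AC codes did not separate the 8 genes. None of the 15 probe sets was called (limma), none had an unadjusted p under 0.05, and 0% of all probe sets were called, with 1289 at an unadjusted p under 0.05. The widest difference was that of Ms4a1, 0.31 higher in AQ (SE 0.48), with AQ at 3.69, 4.12, 4.32, 4.43 and 4.52 and AC at 3.72, 3.77, 3.98, 4.02 and 4.05. The codes overlapped.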

How the data were processed

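The arrays measured total RNA as labelled cRNA, per the labels' protocols. The authors summarised probes with RMA, which gives a log2 value per probe set, per the submitters' processing notes. The RMA version, the chip definition and whether all arrays were processed together are not given in the sources used here. Of 45101 probe sets, 64 controls were left out.

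Linear models were fitted with limma 3.58.1 in R 4.3.3, 1 on the 16 parental arrays and 1 on the 16 lactation arrays, with a mean per group. P-values were adjusted (Benjamini-Hochberg) over all 45037 probe sets and called under 0.05. Where a gene had several probe sets, the brightest stands for it. All members are named, with up to 4 called and 2 uncalled genes of a list, and further genes that array 2 of lactating QSi5 mice singled out were chosen after their values were seen. The members and lists were chosen with earlier results of these data known. The models were tested on simulated data with a change of 1 unit in 200 probe sets. Of these changes, 20% were called for the interaction and 56.5% for the strains at lactation. In the other comparisons 66% to 82.5% were called. Alternatives covered level filters, scaling, weights, blocks, the samples in the fit and leaving out arrays. Leaving out both high arrays was chosen after their values were seen. Promoters are from RefSeq (GRCm38.p6). The number of arrays limits the precision.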

Additional observations from a re-analysis of the deposited data

Results flagged for a closer look

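Among 60 groups of 5 arrays per probe set, 5 held an array far from the other 4, and about 1 in 20 does so by chance. On array 4 of pregnant CBA/CaH mice, Cd3g was at 5.89 (4.03 to 4.46 on the others), Ms4a1 1450912_at at 3.09 (2.87 to 2.89) and Il2rb 1448759_at at 5.33 (5.07 to 5.09). Ms4a1 1450912_at was at 3.04 on array AC 3 of the AIL (2.74 to 2.82 on the others). Cd4 1419696_at was at 5.85 on array AQ 4, below the others of its code (6.22 to 6.35). The lactation groups of the parental strains hold 3 arrays and were not examined this way, which includes array 2 of lactating QSi5 mice.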

How the results depend on the processing

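Over all alternatives, 1632 of 1728 member differences kept their side of the threshold, 81 lost a call, 15 gained one, and none reversed while called. Of the 1632, 79 changed sign without a call in either setting. A filter at a mean of at least 5 kept 6 of the 15 probe sets, with 3 called for stage in CBA/CaH, 6 in QSi5, 2 for the AIL against CBA/CaH and 5 against QSi5, and here fewer probe sets could be called. The AIL against CBA/CaH count of 4 was 2 with array medians set equal, 1 with all 26 arrays in the fit, and 2 with a replicate block. The cause was not tested. Of all probe sets, 10.3% were lower with array medians set equal and 14.4% with the block. The shares of all probe sets for the filter and for all 26 arrays are not given here. Leaving out 1 array gave 4 to 6 stage calls in CBA/CaH, 8 to 13 in QSi5, 2 to 6 calls for the AIL against CBA/CaH and 4 to 14 against QSi5. Without both high arrays, an alternative added after seeing the data, the AIL against QSi5 count was 4, beside 13.1% of all probe sets lower. With the replicate block, the stage counts were 4 and 10, beside 28.9% and 32.9% of all probe sets higher. The AIL against QSi5 count was then 6, beside 16.5% lower. Against CBA/CaH the block left out the calls of Cd8a 1440164_x_at (adjusted p = 0.114, limma) and Cd4 1427779_a_at (adjusted p = 0.0786). Arrays of the same number share only that number: deviations from group means correlated at -0.43 to 0.32 over 57 pairs, and at 0.01 to 0.32 over the 5 AC and AQ pairs, of which 4 exceeded 0.1. The strain, interaction and code comparisons gave 0 member calls in all settings run. Groups of 3 arrays and dim probe sets limit what could be detected.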
